A study of Mus musculus with 3 samples.

Results

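The bone morphogenetic protein (BMP), Nodal, activin and transforming growth factor beta (TGF-beta) genes described here are 47 ligands, receptors, extracellular antagonists and Smad proteins, out of 35468 gene or transcript names on the array. Members were chosen by symbol. A probe counted as a member's probe when its accession, or its name in the authors' deposited table, gave one of the 47 symbols, and 70 of 55681 non-control probes did so. RNA from the dorsal cortex of untreated mouse pups at postnatal day 4 was hybridised to 3 two-colour Agilent arrays. Each array set 1 pup labelled wild type, in Cy3, against 1 pup labelled Brpf1-deficient, in Cy5, as pair 1, 2 or 3. Brpf1 encodes a scaffold protein of histone acetyltransferase complexes. The labels give neither the Brpf1 allele, nor a Cre driver, nor the strain, sex or litter of the pups, so p-values measure only the spread between these 3 pairs. No dyes were swapped, so that dye and genotype cannot be told apart for any single gene.

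Ligands of the TGF-beta superfamily are secreted dimers that bring together type I and type II receptor kinases, which then phosphorylate receptor-regulated Smad proteins. Smad1 and Smad5 serve mainly the BMP branch, Smad2 and Smad3 the TGF-beta, activin and Nodal branch, and both branches use Smad4 to act on genes in the nucleus. Secreted antagonists such as noggin, chordin, gremlin, follistatin and the Lefty proteins limit access to the receptors, and in the forebrain BMP signals from the dorsal midline pattern the cortex and hippocampus and later favour astrocyte formation.

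Of the non-control spots, 57.9% to 61.0% in each channel stood well above background and none was saturated. Brpf1 itself was brighter in Cy5, the channel labelled deficient: its log2 ratio (Cy5 over Cy3) was 0.63, 0.73 and 0.96 on arrays 1, 2 and 3, a mean of 0.77 ± 0.17 (SD, n = 3 arrays) and a limma adjusted p of 0.00444. That direction goes against the channel's label. Brpf1 has a log fold change of -0.80 in the authors' deposited table, but the direction of that ratio is not stated. Every member probe listed there also has the opposite sign to the one here. The sign of Brpf1 there is thus not a difference in result. It is not known here whether the single Brpf1 probe falls inside what was deleted, so it may check nothing. Directions are for that reason given by dye, with the label each dye carries, and the genotype behind a direction is not settled. Log2 ratios above 0 stand for more signal in Cy5 (label: Brpf1-deficient) and those below 0 for more signal in Cy3 (label: wild type). Of 12 cortical marker genes, 11 were well above background in both channels on all 3 arrays. The other, Emx1, was so in Cy5 on 2 arrays. It had log2 ratios of 0.65 on array 1 against -2.72 and -2.65 on arrays 2 and 3, and did not pass the test.

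Of the 47 members, 44 could be measured, among 23232 genes that passed the filter on dim probes. A gene is called here when its limma p, adjusted by Benjamini-Hochberg over all 23232 genes, was under 0.05. In all, 11 of the 44 members (25%) were called, where 17.1% of all genes tested were. Of the 44 measured members, 4 were called brighter in Cy5, where 7.98% of all genes tested were. Another 7 of the 44 were called brighter in Cy3, where 9.17% of all genes tested were. The Nodal antagonists Lefty2 and Lefty1, the BMP antagonist Grem1 and the ligand Gdf10 were brighter in Cy5. The activin receptor Acvr2a, the activin antagonist Fst, the BMP receptor Bmpr1b, the ligands Bmp2 and Gdf9, and the signal carriers Smad4 and Smad2 were brighter in Cy3. The median log2 ratio was 0.03 over the members and -0.01 over all genes, and 25 members lay above 0 and 19 below. Most of the called differences were small, with a median size of 0.45 on the log2 scale against 0.38 over all called genes. Lefty2 was the only called member that reached 2-fold as reported, among 92 of the 3983 called genes that did. With the scanner software's processed signals, the dim Lefty1 reached it too, at a log2 ratio of 1.20.

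**Figure D1:**
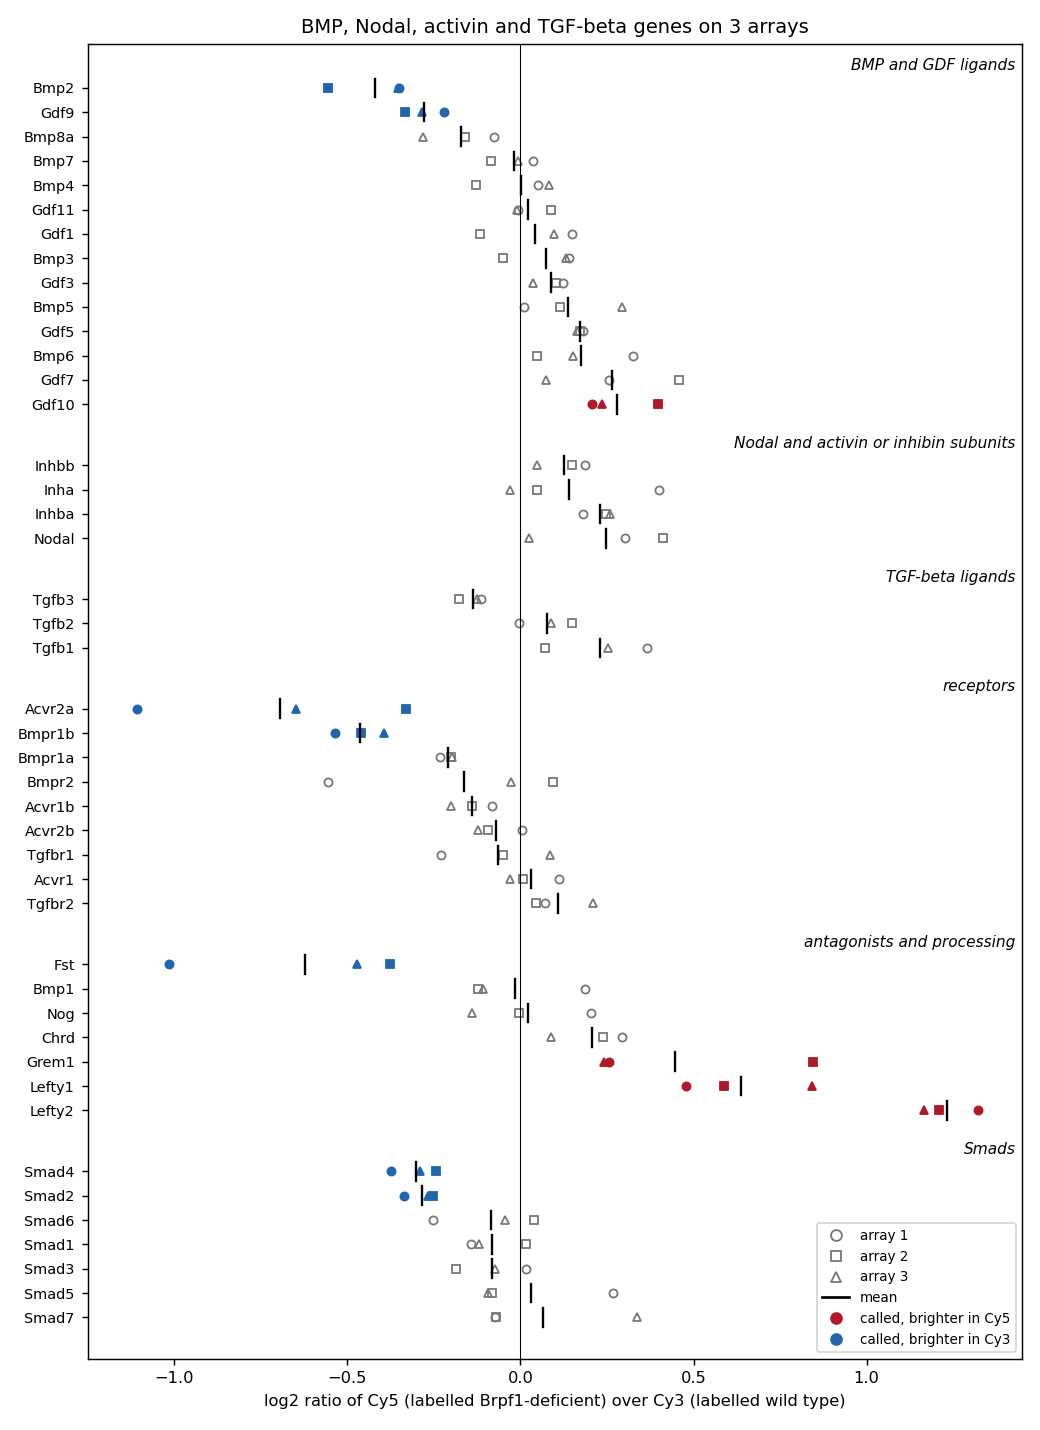
Log2 ratio of Cy5 over Cy3 for each of the 44 measured members, grouped by role, with 1 marker per array and a bar at the mean of 3 arrays. Lefty2 lies farthest to the Cy5 side, with all 3 arrays between 1.17 and 1.32, and Acvr2a and Fst lie farthest to the Cy3 side, with array 1 apart from arrays 2 and 3.

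**Figure D2:**
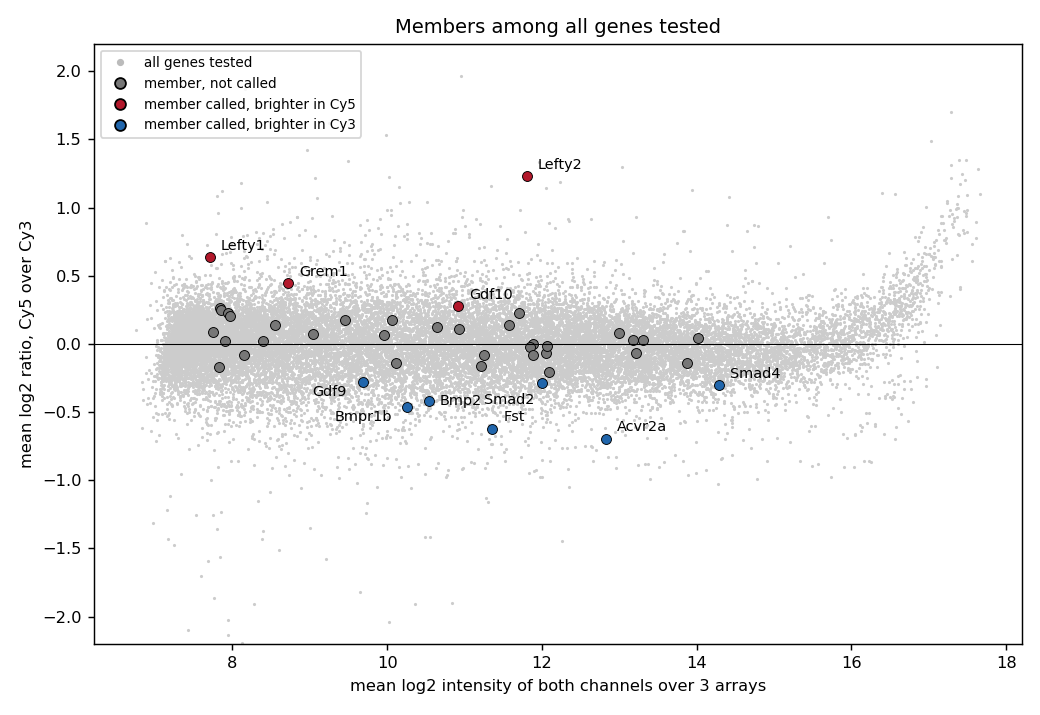
Mean log2 ratio of Cy5 over Cy3 (vertical axis, cut at ±2.2, with 11 genes beyond it) against mean log2 intensity (horizontal axis) for all 23232 genes, with the 44 members marked and the 11 called ones named. Lefty2 stands at rank 19 of 23232 towards Cy5, and the other called members lie closer to the cloud of all genes.

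The promoter table held windows for 31 of the members, among them 4 of the 11 called ones. The 250 bases before the annotated start are shown for these 4 because their signal was called different between the channels. Lefty1, Lefty2, Fst, Bmp2, Gdf9, Smad2 and Smad4 have no entry in it. The sequences are from RefSeq, build GRCm38.p6, written 5′ to 3′ on the gene's strand. Capitals mark matches, on either strand, to CAGAC (a single Smad box), to the elements GGCGCC or, in other genes, GGAGCC (both rich in G and C, through which Smad1 and Smad5 act) and to the TATA box TATAAA. Acvr2a is at chr2:48813859-48814108 on the plus strand, Bmpr1b (the most upstream of its 3 starts) at chr3:141982265-141982514 on the minus strand, Gdf10 at chr14:33923337-33923586 on the plus strand and Grem1 at chr2:113758649-113758898 on the minus strand.
Acvr2a: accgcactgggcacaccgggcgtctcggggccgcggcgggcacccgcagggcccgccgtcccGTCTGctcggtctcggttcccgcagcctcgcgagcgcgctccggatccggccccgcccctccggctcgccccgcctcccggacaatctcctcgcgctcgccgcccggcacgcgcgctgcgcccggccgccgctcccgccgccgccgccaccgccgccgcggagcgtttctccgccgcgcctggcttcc
Bmpr1b: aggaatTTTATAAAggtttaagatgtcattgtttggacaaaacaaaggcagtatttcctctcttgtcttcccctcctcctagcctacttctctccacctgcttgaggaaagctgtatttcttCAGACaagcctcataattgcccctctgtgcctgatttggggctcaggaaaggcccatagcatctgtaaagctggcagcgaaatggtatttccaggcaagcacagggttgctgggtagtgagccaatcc
Gdf10: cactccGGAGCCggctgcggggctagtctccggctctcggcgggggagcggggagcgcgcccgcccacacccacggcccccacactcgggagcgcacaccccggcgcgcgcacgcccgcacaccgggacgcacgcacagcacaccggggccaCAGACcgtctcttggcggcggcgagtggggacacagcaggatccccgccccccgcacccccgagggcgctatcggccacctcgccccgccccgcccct
Grem1: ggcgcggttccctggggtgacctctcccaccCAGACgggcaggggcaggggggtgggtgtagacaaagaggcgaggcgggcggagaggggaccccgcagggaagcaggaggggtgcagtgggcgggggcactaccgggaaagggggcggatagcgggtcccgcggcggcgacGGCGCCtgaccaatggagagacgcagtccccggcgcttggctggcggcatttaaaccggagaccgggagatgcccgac
The Acvr2a window has 82% G and C and holds a Smad box on the reverse strand, whereas the Bmpr1b window has 46.8% G and C and holds a Smad box and a pair of overlapping matches to the TATA box, 1 on each strand. The windows of the other Bmpr1b starts, with 56.4% and 52.8% G and C, both hold GGAGCC and no TATA match, and 1 of them holds a Smad box. The Gdf10 window holds GGAGCC and a Smad box, and the Grem1 window GGCGCC and a Smad box. Over the 38 windows of the 31 members, the Smad box was found in 18 (47.4%) against 42.2% of all 32851 windows, GGAGCC in 18 (47.4%) against 26%, GGCGCC in 7 (18.4%) against 9.59%, and TATAAA in 4 (10.5%) against 12.4%. The palindromic Smad element GTCTAGAC was in 0 of the 38, and in 0.167% of all windows. These are matches of letters in short windows, several members have more than 1 window, and no test was made of them.

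Among the 7 secreted antagonists and processing enzymes, 3 were called brighter in Cy5 and 1 in Cy3. Together that is 57.1% of these 7, against 17.1% of all genes. Lefty2, which binds Nodal and its co-receptors and blocks Nodal signalling, had the largest log2 ratio of all members. Its normalised log2 intensity was 11.25, 11.16 and 11.15 in Cy3 and 12.58, 12.37 and 12.32 in Cy5 on arrays 1, 2 and 3. The channels did not overlap. That also held for members that were not called, such as Inhba, at 11.55 to 11.63 in Cy3 and 11.73 to 11.87 in Cy5. Channels that do not overlap thus do not set the called members apart. The 3 arrays of Lefty2 differed little from each other. The log2 ratio was 1.32, 1.21 and 1.17, a mean of 1.23 ± 0.08 (SD, n = 3), which is a 2.35-fold difference with a 95% interval of 1.07 to 1.40 on the log2 scale and an adjusted p of 0.00025. Lefty1, its close paralog, restricts Nodal signalling to the left side of the early embryo. It was far dimmer, with background-subtracted spot intensities of 88, 72 and 55 in Cy3 and 206, 195.5 and 201 in Cy5, yet well above background in both channels. Its log2 ratio was 0.48, 0.59 and 0.84, a mean of 0.64 ± 0.19 (1.55-fold, adjusted p 0.00849). Each gene has 1 probe, and how far a probe for one also binds the transcript of the other was not tested.

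Grem1, a BMP antagonist of the DAN family, had log2 ratios of 0.26, 0.84 and 0.24, a mean of 0.45 ± 0.34 (1.36-fold, adjusted p 0.0493). Array 2 stood apart, and without array 2 the mean was 0.25 and the adjusted p 0.156. Without array 1 the mean was 0.54 and the call was lost as well (adjusted p 0.0569). Fst encodes follistatin, which binds activin and several BMPs and keeps them from their receptors. Its normalised log2 intensity was 11.67, 11.56 and 11.78 in Cy3 and 10.65, 11.18 and 11.31 in Cy5, with no overlap between the channels. The log2 ratio was -1.02, -0.38 and -0.47, a mean of -0.62 ± 0.34 (1.54-fold brighter in Cy3, adjusted p 0.0222). Array 1 showed the largest difference, and without it the mean was -0.42 and the gene was still called.

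The other 3 were not called. Nog, the BMP trap noggin, was at 0.21, 0.00 and -0.14, a mean of 0.02 with a 95% interval of -0.18 to 0.22. Chrd, encoding chordin, had 2 probes of opposite sign. The brighter read 0.29, 0.24 and 0.09 (mean 0.21, adjusted p 0.0908), whereas the dimmer read -0.19, -0.13 and -0.27 (mean -0.20) and was well above background in Cy5 on 1 array only. Bmp1, which despite its name is a metalloprotease that cleaves chordin and procollagens, had 3 probes. Its brightest read 0.19, -0.12 and -0.11 (mean -0.01), and the others 0.28, 0.03 and 0.08 (mean 0.13) and 0.42, 0.20 and 0.15 (mean 0.26, adjusted p 0.0647).

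**Figure D3:**
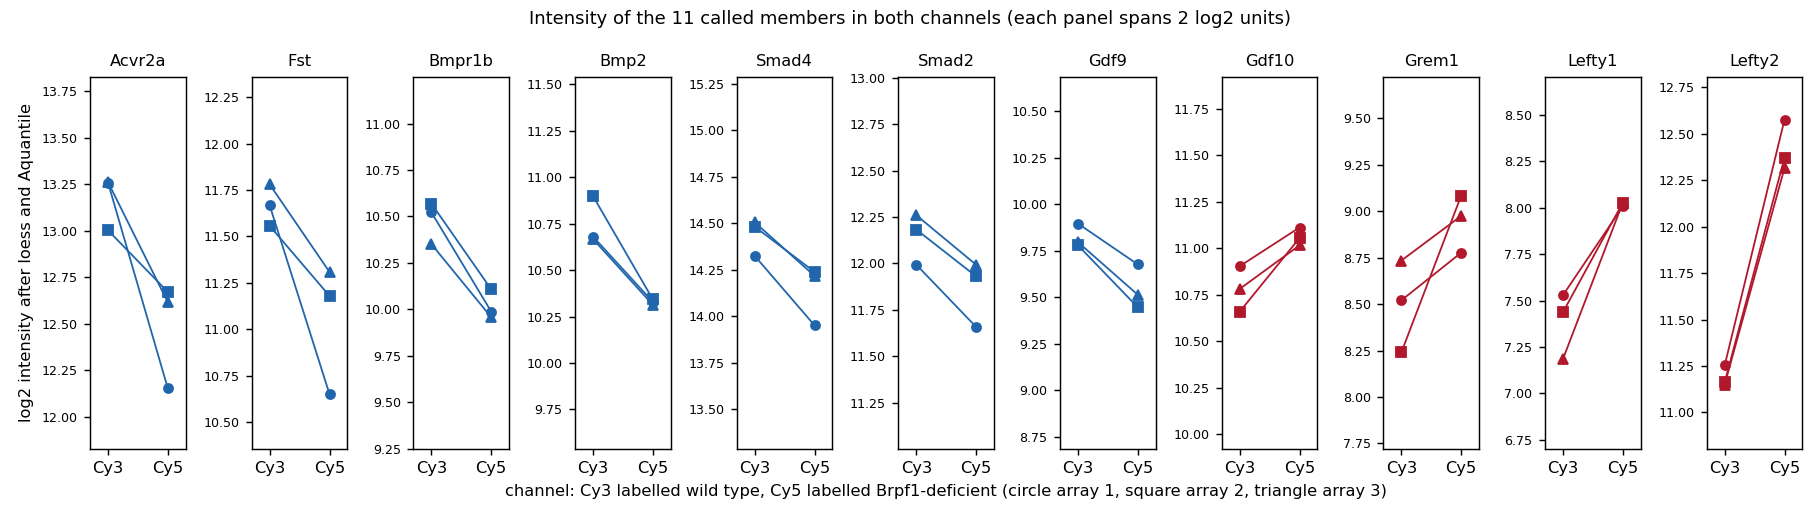
Normalised log2 intensity in Cy3 (labelled wild type) and Cy5 (labelled Brpf1-deficient) for each of the 11 called members, with a line joining the channels of each array (circle array 1, square array 2, triangle array 3). All lines of a member slope the same way, steeply for Lefty2 and, on array 1, for Acvr2a and Fst, and gently for Smad2, Smad4 and Gdf9.

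Of 17 BMP and growth differentiation factor (GDF) ligands, 14 could be measured, and 1 was called brighter in Cy5 and 2 in Cy3. Together that is 21.4% of the 14, against 17.1% of all genes. Bmp10, Gdf6 and Gdf15 were not well above background in either channel on any array, each by 1 probe, with background-subtracted intensities of at most 42 in Cy3 and 40 in Cy5. Bmp2, a ligand that drives bone and heart formation, read -0.35, -0.56 and -0.35, a mean of -0.42 ± 0.12 (1.34-fold brighter in Cy3, adjusted p 0.0167). Gdf9, best known as a factor of the oocyte, read -0.22, -0.33 and -0.28, a mean of -0.28 ± 0.06 (1.21-fold brighter in Cy3, adjusted p 0.0365). Both were below 0 on every array. Gdf10, also named BMP3b, read 0.21, 0.40 and 0.23, a mean of 0.28 ± 0.10 (1.21-fold brighter in Cy5, adjusted p 0.0426). Its intensity in Cy3 was 10.66 to 10.90 and in Cy5 11.02 to 11.11 on the log2 scale, so the channels did not overlap. Some members that were not called were separate in this way too. The call on Gdf10, and that on Gdf9, needed array 2 and array 3: without either array the adjusted p of each was over 0.05, and for Gdf10 it was 0.209 without array 2.

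The other 11 measured ligands of this group ranged from -0.17 for Bmp8a to 0.26 for Gdf7. Bmp4, made in the dorsal midline of the forebrain, read 0.05, -0.13 and 0.08, with a mean of 0.00 and a 95% interval of -0.17 to 0.18. Bmp7, a ligand of the meninges and choroid plexus, read 0.04, -0.09 and -0.01 (mean -0.02, interval -0.18 to 0.14). Both intervals end below 0.43, the lower bound of the interval for Lefty1, which is given only for scale. Smaller differences in Bmp4 or Bmp7 are not excluded. Bmp3, Bmp5, Bmp6, Gdf3 and Gdf11 had means of 0.02 to 0.18. Gdf7, a roof plate ligand, read 0.26, 0.46 and 0.07 (mean 0.26, adjusted p 0.0784). Gdf5, a ligand of joint formation, had 2 probes of the same sign but different size. The brighter read 0.18, 0.17 and 0.16 (mean 0.17, adjusted p 0.109), and the dimmer 0.57, 0.42 and 0.32 (mean 0.43, adjusted p 0.0164 in the fit over all probes). Gdf1, which works with Nodal and shares a transcript with the ceramide synthase gene Cers1, read 0.15, -0.12 and 0.10 (mean 0.04) by its brighter probe and 0.36, 0.18 and 0.15 (mean 0.23, adjusted p 0.0751) by the other. Bmp8a has a near-identical neighbour, Bmp8b, and its value may hold signal of both, which was not tested. The Bmp8b probe read 0.04, 0.08 and 0.15 (mean 0.09, adjusted p 0.37), with background-subtracted intensities of only 46 to 87 in Cy3.

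Nodal and the activin or inhibin subunits gave no call, although all 4 means lay above 0. Nodal, the ligand that the Lefty proteins restrain, read 0.30, 0.41 and 0.03, a mean of 0.25 ± 0.20 (adjusted p 0.0958). Inhba, the activin A subunit, whose transcription follows neuronal activity, read 0.18, 0.25 and 0.26, a mean of 0.23 ± 0.04 (adjusted p 0.0571). Inha was at 0.14 and Inhbb at 0.13. The means of all 4 stayed above 0 under every alternative tried, although several alternatives leave the ratio as it was. Inha, at 0.40, 0.05 and -0.03 on the 3 arrays, fell to 0.01 without array 1 (adjusted p 0.938). Inhba passed the threshold under 3 of the 15 alternatives: median centring, centring by intensity bin and a variance trend.

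None of the 3 TGF-beta ligands was called. Tgfb1, the isoform made by microglia and blood cells, read 0.36, 0.07 and 0.25, a mean of 0.23 ± 0.15 (adjusted p 0.0854). Tgfb2 was at 0.08 and, by its other probe, 0.10, and Tgfb3 was at -0.14 (interval -0.30 to 0.02).

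Of the 9 receptors, 2 were called (22.2%, against 17.1% of all genes), both brighter in Cy3. Acvr2a, a type II receptor for activins that also binds BMPs, had normalised log2 intensities of 13.26, 13.00 and 13.26 in Cy3 and 12.15, 12.67 and 12.62 in Cy5. The channels did not overlap. The log2 ratio was -1.11, -0.33 and -0.65, a mean of -0.70 ± 0.39 (1.62-fold brighter in Cy3, adjusted p 0.021), with the largest difference on array 1. Its other probe read -0.91, -0.59 and -0.62, a mean of -0.71 ± 0.17 (adjusted p 0.00593), and Acvr2a was the one member with several probes that were all called.

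Bmpr1b, a type I receptor for BMPs and GDFs, read -0.53, -0.46 and -0.39, a mean of -0.46 ± 0.07 (1.38-fold brighter in Cy3, adjusted p 0.011). The 3 arrays lay close together. Its dimmer probe read -0.19, -0.08 and -0.02, a mean of -0.10 ± 0.09 that was not called (adjusted p 0.364), so the probes have the same sign and differ in size. Bmpr1a, the other type I receptor of BMPs, read -0.23, -0.20 and -0.20, a mean of -0.21 ± 0.02 (adjusted p 0.068). Bmpr2, the type II receptor, read -0.56, 0.09 and -0.03 (mean -0.16, adjusted p 0.374), with array 1 again the lowest.

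Acvr2b (-0.07) and Tgfbr2 (0.11) were not called, nor were Acvr1, Acvr1b and Tgfbr1 by their brightest probes. In the last 3 the probes of a gene differed in sign. Acvr1, a type I receptor of BMPs, had 3 probes. The brightest read 0.11, 0.01 and -0.03 (mean 0.03), a second 0.53, 0.27 and 0.20 (mean 0.33, adjusted p 0.0396) and the third -0.03, -0.19 and -0.26 (mean -0.16). Acvr1b, the type I receptor of activin and Nodal, read -0.08, -0.14 and -0.20 (mean -0.14) by one probe and 0.17, 0.13 and 0.14 (mean 0.15) by the other. Tgfbr1, the type I receptor of TGF-beta, had 3 probes that passed. They read -0.23, -0.05 and 0.09 (mean -0.07), -0.41, 0.05 and -0.12 (mean -0.16), and 0.41, 0.72 and 0.15 (mean 0.42, adjusted p 0.0405). For these 3 genes the direction depends on the probe. Over all 9 receptors the median log2 ratio was -0.14, with 7 below 0, and it became 0.02, with 4 below 0, when arrays were centred on their median in place of loess.

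Of the 7 Smad genes, 2 were called (28.6%, against 17.1% of all genes), both brighter in Cy3. Smad2, the receptor-regulated Smad of the TGF-beta and activin branch, read -0.34, -0.25 and -0.27, a mean of -0.28 ± 0.04 (1.22-fold brighter in Cy3, adjusted p 0.034). Smad4, the partner of both branches, read -0.37, -0.24 and -0.29 by its brighter probe, a mean of -0.30 ± 0.07 (1.23-fold brighter in Cy3, adjusted p 0.0313). Its other probe read 0.21, 0.22 and -0.01, a mean of 0.14 (adjusted p 0.224). The direction of Smad4 thus depends on the probe, and its mean over both probes was -0.08 (adjusted p 0.412). With median centring, Smad4 was at -0.05 (adjusted p 0.737), and without array 3 its adjusted p was 0.111.

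Smad1, a BMP-branch Smad, read -0.14, 0.02 and -0.12 by its brightest probe (mean -0.08) and 0.44, 0.50 and 0.27 by a dimmer one (mean 0.40, adjusted p 0.0197). Smad3 read 0.02, -0.19 and -0.07 (mean -0.08) and, by its other probe, 0.07, 0.06 and 0.18 (mean 0.11). Smad5 read 0.27, -0.08 and -0.09 (mean 0.03) and, by its other probe, -0.41, 0.15 and -0.20 (mean -0.15). None of the 3 can be given a direction from these probes. The inhibitory Smads, which shut the pathway off again, were not called: Smad6 was at -0.08 and Smad7 read -0.07, -0.07 and 0.34 (mean 0.06).

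Over probes rather than genes, 62 of the 70 member probes passed the filter and 16 were called, 8 brighter in Cy5 and 8 in Cy3, where 16.9% of all 32983 probes were called, 7.49% in Cy5 and 9.39% in Cy3. For 15 members several probes passed. In 9 of these 15 the probes differed in sign, in 7 at least 1 probe was called, and in 1, Acvr2a, all were. The probes of a gene can sit on different transcript ends, and the files used here hold no probe sequence with which to place them.

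**Figure D4:**
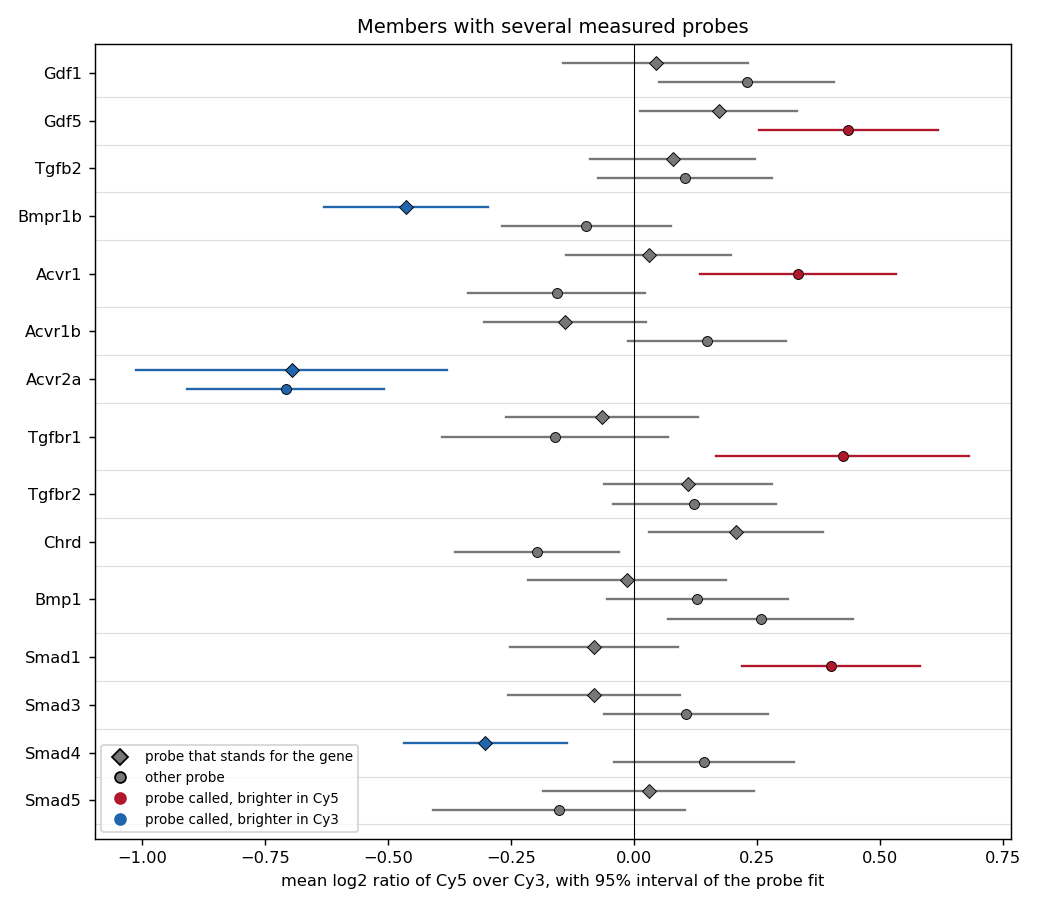
Mean log2 ratio of Cy5 over Cy3 of every probe that passed, for the 15 members with several such probes, with the 95% interval of the probe fit as bars. Diamonds are the probe that stands for the gene, circles the other probes, grey probes were not called, and coloured ones were called in the fit over all probes. The probes of Acvr2a lie together on the Cy3 side, whereas those of Smad1, Smad4, Acvr1 and Tgfbr1 lie on both sides of 0.

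Genes of the same pathways outside the 47 were taken as a fixed list of 82, of which 68 were measured. Of these, 9 were called brighter in Cy5 and 5 in Cy3, together 20.6% against 17.1% of all genes, with a median log2 ratio of 0.06. Among ligands and co-receptors, Tdgf1, the Nodal co-receptor Cripto, read -0.84, -0.27 and -0.42 (mean -0.51 ± 0.30, adjusted p 0.0286). Mstn, the ligand myostatin, was at -0.42 (adjusted p 0.044). The call on Tdgf1 was lost under 3 of the 15 alternatives, with a highest adjusted p of 0.389, and that on Mstn under 5. Cfc1, the related Nodal co-receptor Cryptic, was at 0.05 (adjusted p 0.694) and was not called. Among receptors, Amhr2, the receptor of anti-Müllerian hormone, read 1.11, 0.54 and 0.70 (mean 0.79 ± 0.29, adjusted p 0.00941). Hjv, the BMP co-receptor hemojuvelin, was at 0.58 ± 0.02 (adjusted p 0.00506) and well above background in Cy3 on 2 of 3 arrays. No other of the 8 measured receptors of that list was called, so that 25% were, against 17.1% of all genes.

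Among further antagonists and matrix regulators, Chrdl1, a chordin-like BMP antagonist, was at 0.39 (adjusted p 0.0188) and Kcp at 0.30 (adjusted p 0.0379), and Bmper was at -0.32 (adjusted p 0.0386). The other 15 of 18 measured did not pass, so that 16.7% were called, against 17.1% of all genes. Of 15 intracellular regulators 1 (6.67%) was called, Tgif1, a repressor that binds Smads, at 0.30 (adjusted p 0.0402). Of 22 target genes, 6 were called (27.3%, against 17.1% of all genes), 4 towards Cy5 and 2 towards Cy3. Ccn2, the TGF-beta-responsive matrix protein CTGF, read 1.74, 1.19 and 1.08 (mean 1.34 ± 0.35, adjusted p 0.00237). Cdkn2b, a cell cycle inhibitor induced by TGF-beta in epithelial cells, read -2.10, -2.11 and -1.91 (mean -2.04 ± 0.11, adjusted p 3.62e-05). Junb (0.31) and Acta2 (0.35), both with an adjusted p of 0.044, were brighter in Cy5. Among the inhibitor of differentiation genes, textbook targets of BMP signalling, those called went in opposite directions. Id3 was at 0.29 (adjusted p 0.0375) and Id2 at -0.33 (adjusted p 0.0487), and Id1 and Id4 were not called. With median centring Id2 read 0.08. Among the 15 alternatives, the calls on Bmper and Id3 were lost under 5, and those on Kcp, Tgif1, Junb and Acta2 under 4. Id2 lost its call with the same sign under 6 and changed sign under 1. Chrdl1 lost its call under 1, whereas Amhr2, Hjv, Ccn2 and Cdkn2b were called under all 15.

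Markers of other cells or regions were measured beside these genes. In the striatum list all 10 markers lay above 0 and 7 (70%) were called brighter in Cy5, against 7.98% of all genes. The smallest adjusted p-values among them belonged to Ebf1 (0.60), Penk (1.08) and Adora2a (0.71). Its median log2 ratio was 1.11 on array 1, 0.26 on array 2 and 0.80 on array 3, and its summed signal ran from 34118 to 74030 in Cy3 and from 88325 to 98330 in Cy5. Acvr2a and Fst also had their largest difference on array 1 and their smallest on array 2, to the Cy3 side. Lefty2 differed little between the arrays, and Lefty1 was highest on array 3. Of 4 measured erythroid markers 1 was called (Hba-a1, 1.10), which is 25% against 17.1% of all genes. The erythroid medians were 0.21, 0.54 and 1.54 on the 3 arrays, with summed signals of 58357 to 159452 in Cy3 and 171883 to 248520 in Cy5.

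Of the 12 markers of meninges and fibroblasts, cells that make BMP ligands, 1 was called (Foxd1, -0.54), which is 8.33% against 17.1% of all genes. Their summed signal was 173587 to 191313 in Cy3 and 185614 to 210978 in Cy5. None of 8 choroid plexus markers was called, with medians of -0.07, 0.52 and 0.11 and summed signals of 18832 to 69180 in Cy3 and 6120 to 74203 in Cy5. Microglia had 2 of 9 called in Cy5 (22.2%) and endothelial cells 1 of 8 in Cy5 (12.5%), against 7.98% of all genes. Astrocytes had 2 of 7 called in Cy3 (Slc1a3 and Gfap, 28.6%), against 9.17% of all genes. Oligodendrocyte lineage had 0 of 6 called and hippocampus 0 of 5. Of the 12 cortical markers, 4 were called in Cy5 and 2 in Cy3, together 50% against 17.1% of all genes. The largest of these in each direction were Lhx2 at 0.44 and Neurod6 at -0.38. Every measured marker of these lists was well above background in both channels on at least 1 array. The part of the striatal, erythroid, astrocyte or other markers in the values of the members was not tested, and in RNA from whole tissue fewer cells of a type and less RNA per cell cannot be told apart.

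The authors' deposited table lists the probe used here for 31 of the members. All 11 called members are in it with the opposite sign, among them Lefty2 at -1.27 and Lefty1 at -1.17 in the authors' deposited table. So is every other member probe listed there, called or not. The direction of its ratio is not stated, so the opposite signs are not a difference in result. No adjusted p there is under 0.05. The lowest of the whole table is 0.159, and the lowest of a member in the authors' deposited table is 0.22. The sizes are close for Lefty2 and Acvr2a and larger there for Lefty1, whose spot intensities were low.

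Across the 15 alternative settings, all 11 called members kept their sign, but the calls differed in how often they held. Aquantile, other filters, RefSeq names, a variance trend, separate channels and keeping population outliers left the ratios of the called members as they were. The kept sign adds nothing under these settings, and Aquantile left the adjusted p as it was too. Lefty2 (1.19 to 1.31), Lefty1 (0.53 to 1.20) and Bmpr1b (-0.50 to -0.28) were called under each, and Bmp2 under 14, with a highest adjusted p of 0.052. Fst was called under 13, Acvr2a under 12, Gdf10 under 11, Gdf9 and Smad2 under 10, Grem1 under 9 and Smad4 under 8. Without array 2, 6 members were called, with Gdf10, Smad2, Smad4, Gdf9 and Grem1 lost. Without array 3, 7 were called, with Gdf10, Smad2, Smad4 and Gdf9 lost, and 1900 genes in all against 3983.

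**Figure D5:**
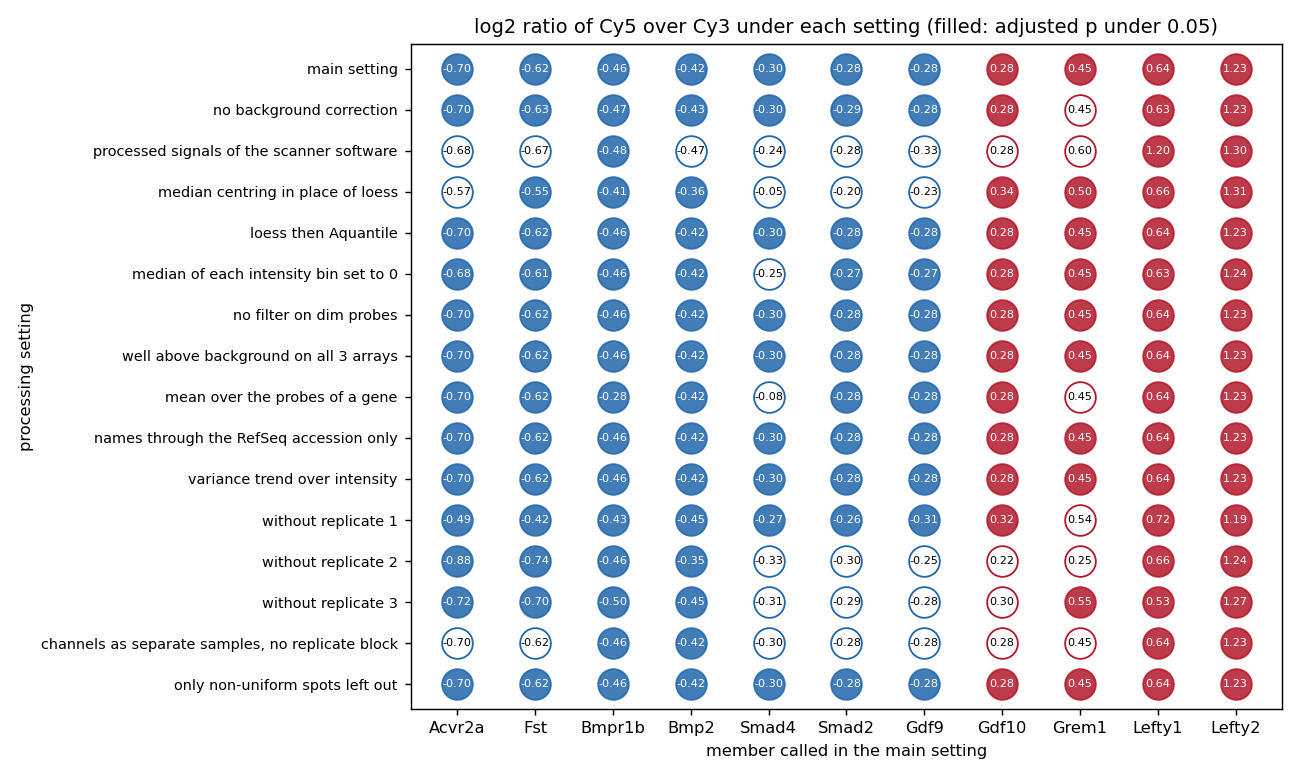
Grid of the 11 called members (columns) by the reported setting and the 15 alternatives (rows), with the mean log2 ratio of Cy5 over Cy3 printed in each circle, which is filled where the gene was called and open where it was not. Lefty1, Lefty2 and Bmpr1b are filled throughout, and Smad4, at -0.05 with median centring, comes closest to 0.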

How the data were processed

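RNA from 3 pairs of pups was compared on 3 two-colour arrays. The deposited scanner files, per the file headers, come from Feature Extraction 10.7.3.1 on an mm9 grid and hold spot and background intensity in both colours without normalization, processed intensities (used in 1 alternative) with their log10 ratio, and flags. The arrays share 1 slide and 1 scan. The authors' deposited table gives log2 fold changes, p-values, adjusted p-values and a score per spot. Its normalization, and the direction of its ratio, were not given in the sources used here. The tool limma is named in the submitters' processing notes.

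Spot medians (planned as means, which the files used here do not hold) were corrected by normexp with offset 50 and each array was loess-normalized, control spots having weight 0, in limma 3.58.1 under R 4.3.3. Outlier spots (250 to 272 per array) were left out, and replicate spots averaged. Probes stayed in the analysis when either channel was well above background on 2 or more arrays, and the brightest of them on average stood for its gene. The log2 ratio of Cy5 over Cy3 was fitted in limma with an intercept alone and moderated variances. Its two-sided p was adjusted by Benjamini-Hochberg across the genes tested, and 0.05 was the threshold. Probes were tested likewise over all probes. The fit was tested on simulated data whose planted changes were at least 2-fold. Most changes called here are smaller, and that test does not cover them. Channel values are after loess and Aquantile.

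Of 55681 probes, 27650 were named through RefSeq accessions (GRCm38.p6, for names and promoter windows only), 4086 through the authors' deposited table and 23945 kept their systematic name. Of the member probes, 6 were named by that table. Every member is described by name. Members that were called, or whose probes differ in sign or over 2-fold in size, are given array by array, and every called gene of the pathway list is given by its mean. The members, lists and rules were chosen with earlier results of these data known. The number of arrays, 3, limits the precision.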

Additional observations from a re-analysis of the deposited data

How the results depend on the processing

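The settings tried were no background correction, the scanner software's processed signals, median centring, Aquantile, centring by intensity bin, other filters, the mean over probes, RefSeq names only, a variance trend, leaving out each array, channels as separate samples and, chosen after seeing the data, keeping population outliers. With processed signals, 1108 genes, 3 members, 5 member probes and 6 pathway genes were called, against 3983, 11, 16 and 14 as reported; the cause was not tested. Leaving out each array gave 1900 to 3775 genes, 6 to 10 members, 11 to 13 member probes and 8 to 14 pathway genes; 2 arrays leave fewer degrees of freedom. The array number pairs the channels, since both lie on the same array, and the reported ratio uses that pairing. With channels as separate samples and no replicate block, 921 genes, 4 members (Lefty1, Lefty2, Bmpr1b and Bmp2) and 4 pathway genes were called. Median centring gave 5359 genes, of which 83.4% were brighter in Cy5 against 46.5% as reported, and 8 members, with Inhba gained and Acvr2a, Smad2, Smad4 and Gdf9 lost. It moved the median of the members to 0.09 and turned Id2 to 0.0785. The mean over probes moved the median of the members to 0.07. Other settings kept these 4 counts within 1.5 times. Of the called members, Lefty1 and Grem1 had the lowest mean intensity, and Bmp10, Gdf6 and Gdf15 have no measured ratio.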
